A study of Mus musculus with 6 samples.

Results

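Translation initiation factors are the proteins that bring a ribosome to the start codon of an mRNA. The rule took every gene of the deposited table whose symbol starts with Eif followed by a digit from 1 to 6, other than the eIF2 kinases, which gave 51 of 25124 genes. Of these, 48 were among the 11297 genes abundant enough to be tested, at 1 TPM or more in at least 3 libraries. TPM divides the reads of a gene by the length of its transcript and then by a total for the library. The samples were RAW264.7, a macrophage line from the mouse, in a derivative that carries a Cas9 plasmid lacking any guide RNA and serves as the control line for knockout of E4BP4, a transcription factor. M1 cells were exposed to both LPS, the lipopolysaccharide of bacterial outer membranes, and interferon-γ, the first at 100 ng/ml and the second at 50 ng/ml. How long they were exposed is not stated in any source used here. M0 cells were given neither agent. All cells grew in medium with 25 mM glucose and 10% FBS. Each group held 3 samples, and poly(A) RNA was selected from 200 ng of total RNA. No source says whether the line is a single clone or whether the samples came from separate cultures. The p-values therefore speak only of the variation among these samples, some of which may be technical.

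In the scanning model of initiation, eIF2 carries the initiator tRNA and GTP to the small ribosomal subunit, where eIF1, eIF1A, eIF3 and eIF5 also bind. The complex eIF4F, made of the cap-binding protein eIF4E, the scaffold eIF4G and the helicase eIF4A, recruits this assembly to the capped end of the mRNA. The pathway has well known control points, which are the eIF4E-binding proteins that keep eIF4E from eIF4G until mTORC1 phosphorylates them, and the kinases that phosphorylate eIF2α and so block its recharging by eIF2B. In macrophages both are known to bear on which cytokine mRNAs are translated after a bacterial stimulus.

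Total reads in genes were 18666940 to 20283180 in M1 libraries and 15615639 to 18110568 in M0 libraries. The lowest number of reads behind a tested factor in any library was 63, for Eif4ebp3, followed by 117 for Eif2d and 339 for Eif4ebp2. The 10 macrophage markers were all detected, with a summed level of 2783 to 2824 TPM in M1 and 3010 to 3237 TPM in M0 libraries; the one that varied most was Adgre1, which encodes F4/80, at 67.6 TPM in M1 and 2.73 TPM in M0. The 6 markers of LPS and interferon-γ exposure were all higher in M1. No T cell, B cell, fibroblast or epithelial marker, of 5 each, was abundant enough to be tested, and the highest value of any of them was 1.06 TPM, for the fibroblast marker Dcn (mean 0.927 TPM in M1 and 0.0123 TPM in M0). By reads per gene, M1 replicate 3 stood apart from M1 replicates 1 and 2 (chi-square per degree of freedom 8.41 and 6.95, against 1.59 between replicates 1 and 2). M0 replicate 1 stood apart less (6.13 and 4.44, against 2.27 between M0 replicates 2 and 3). Where leaving out either library changed a call, the value, or the range or largest adjusted p over several libraries, is given beside the result. In bulk RNA, fewer cells of a type and less RNA per cell cannot be told apart.

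Because TPM is a share of each library, every comparison was read on 2 scales. On the TPM scale the 11297 tested genes had a median log2 fold change of −0.31. After division by median-of-ratios factors, called rescaled here, it was 0.02, a shift of 0.33. The words rose and fell are kept for factors that passed an adjusted p of 0.05 in limma in the same direction on both scales. Rescaling moved fold changes upward, so the 2111 tested genes that passed higher on both scales are all those higher in TPM. The 4002 that passed lower on both are all those lower after rescaling. Passing on both scales is therefore 1 call on the stricter scale, not repeated support. Fold changes are M1 over M0 on log2(value + 1).

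The mRNAs of the initiation factors did not move as a block. On both scales 15 of the 48 rose in M1, from 14 loci, and 7 fell. The background on both scales was 18.7% of all tested genes higher and 35.4% lower. Those that rose were all 3 tested subunits of eIF2, 5 of the 14 eIF3 genes, the start-codon factors Eif1, Eif1a and Eif5, the helicases Eif4a1 and Eif4a2, the scaffold relative Eif4g2, and Eif6. Those that fell were all 4 eIF4E-binding inhibitors together with Eif1b, Eif4b and Eif2d. On the TPM scale alone 15 factors were higher and 19 lower, 31.2% and 39.6%, against a background of 18.7% and 61.5%. On the rescaled values 34 were higher and 7 lower, 70.8% and 14.6%, against 38.1% and 35.4%. The authors' deposited table called 34 of these factors higher and 5 lower, with 35.6% and 32.2% of all tested genes in that table. In either direction, 80.2% of all genes passed in TPM, 73.5% after rescaling and 67.8% in the authors' deposited table. The median log2 fold change of the 48 factors was −0.07 on the TPM scale, against −0.31 for all tested genes. It was 0.29 after rescaling, against 0.02.

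**Figure D1:**
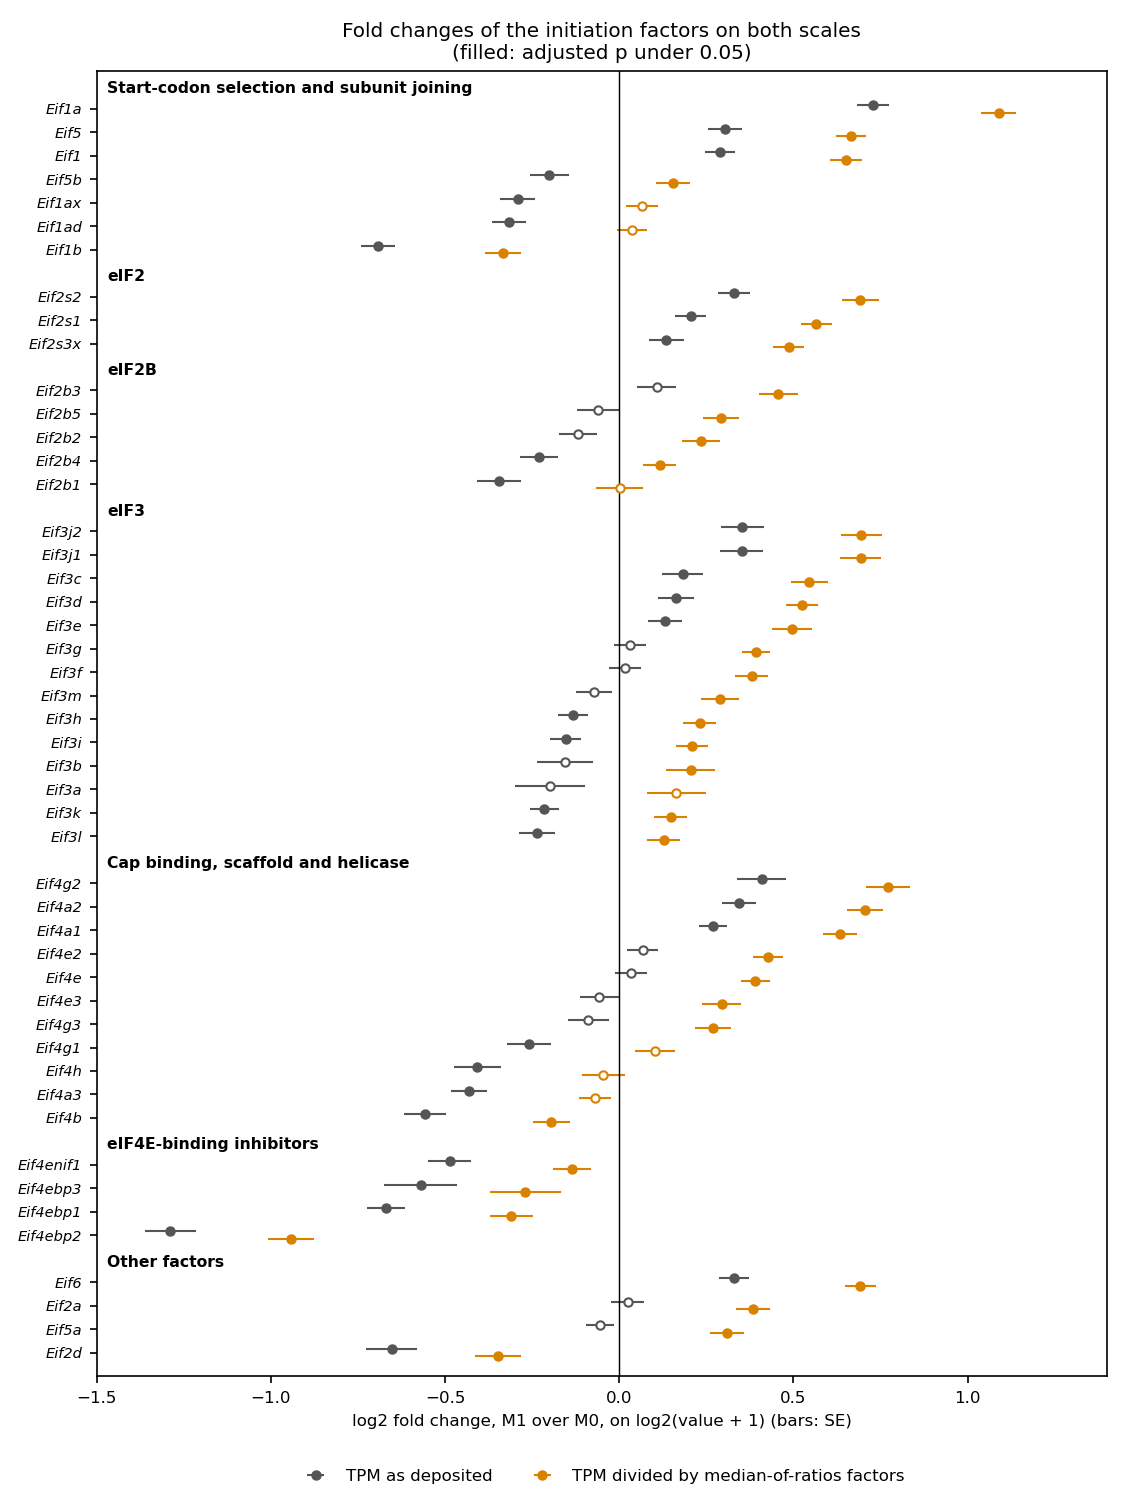
Log2 fold changes of the 48 tested initiation factors, M1 over M0 on log2(value + 1), grouped by role on the vertical axis. Grey points are TPM as deposited, orange points are rescaled TPM, bars are SE and filled points passed an adjusted p of 0.05. The 4 eIF4E-binding inhibitors lie left of 0 on both scales and the 3 eIF2 subunits right of 0 on both, while 18 factors change sign between the scales.

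The promoters of 3 factors are shown because these genes carry the clearest opposite movements: Eif4ebp2, which fell most, and the near relatives Eif1 and Eif1b, which moved apart. The sequences are the 250 bases before the annotated start, from RefSeq on GRCm38.p6, read 5′ to 3′ on the strand of the gene. They lie at chr10:61452670-61452919 on the minus strand (Eif4ebp2), chr9:120492356-120492605 on the plus strand (Eif1b) and chr11:100319699-100319948 on the plus strand (Eif1). Capitals mark matches, on either strand, to an ETS core (CCGGAAG), an E-box (CACGTG) or a CCAAT box (CCAAT).
Eif4ebp2: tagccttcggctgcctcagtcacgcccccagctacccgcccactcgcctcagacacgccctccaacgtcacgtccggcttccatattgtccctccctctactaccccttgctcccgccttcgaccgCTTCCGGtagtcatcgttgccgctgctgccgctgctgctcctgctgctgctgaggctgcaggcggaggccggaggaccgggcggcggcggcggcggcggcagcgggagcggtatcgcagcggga
Eif1b: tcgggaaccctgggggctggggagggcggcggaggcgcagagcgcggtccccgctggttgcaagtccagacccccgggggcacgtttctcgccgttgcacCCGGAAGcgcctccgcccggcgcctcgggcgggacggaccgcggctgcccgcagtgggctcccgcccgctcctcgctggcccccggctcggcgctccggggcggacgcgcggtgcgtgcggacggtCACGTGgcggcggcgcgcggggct
Eif1: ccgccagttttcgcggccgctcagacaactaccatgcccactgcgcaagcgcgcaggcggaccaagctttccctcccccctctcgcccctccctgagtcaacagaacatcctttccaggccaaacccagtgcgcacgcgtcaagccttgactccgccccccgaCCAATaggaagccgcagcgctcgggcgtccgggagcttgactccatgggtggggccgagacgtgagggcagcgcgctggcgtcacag
The ETS core begins 124 bases before the start of Eif4ebp2 and 150 bases before that of Eif1b, which also has an E-box at 24 bases. Eif1 has a CCAAT box at 87 bases and neither of the other 2 motifs. A RefSeq window matched 39 of the 51 factors at the deposited start, and 37 of these were tested. Over 300 bases, 250 before the start and 50 after, an ETS core was present in 12 of 37 tested factors (32.4%), against 20.8% of 8434 tested genes with a window. An E-box was present in 8 of 37 (21.6%), against 10.6%, and a CCAAT box in 9 (24.3%), against 39.3%. The interferon-stimulated response element (GAAA, NN, GAAA) was found in 3 factors, Eif2s1, Eif2s3x and Eif3a, which is 8.11% against 3.57% of tested genes. The gamma-activated sequence (TTCNNNGAA) was found in Eif3c and Eif3g (5.41% against 6.88%). The NF-κB consensus, present in 6.87% of tested genes, and the cAMP response element (TGACGTCA), present in 3.49%, had no match in the 37 windows. All motifs were searched on both strands and may overlap, and a match describes letters only.

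All 4 tested inhibitors that bind eIF4E fell, against 35.4% of all tested genes. Eif4ebp2 (NM_010124, chromosome 10), one of the proteins that occupy the eIF4G site on eIF4E, had 11.3, 11.7 and 13.8 TPM in M1 cells, against 30.6, 33.3 and 30.3 TPM in M0 cells. Every M1 library lay far below every M0 library. The mean was 2.55-fold lower in M1 (log2 fold change −1.29, SE 0.07, adjusted p = 2.3e-08; rescaled −0.94, SE 0.07, adjusted p = 5e-07). M1 replicate 3 was 19.6% above the mean of the other M1 libraries. Eif4ebp1 (NM_007918, chromosome 8), the best studied of these mTORC1 targets, had 64.1, 64.4 and 58 TPM in M1 cells, against 101.8, 94.5 and 102.2 TPM in M0 cells. The groups were apart, and the log2 fold change was −0.67 (SE 0.05, adjusted p = 4.7e-07; rescaled −0.31, SE 0.06, adjusted p = 0.0011).

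The other members of this group were smaller or less certain. Eif4ebp3 (NM_201256, chromosome 18), the last of the binding proteins, was scarce, with 211 reads over the 3 M1 libraries and 305 over the 3 M0 libraries. Its levels were 4.32, 3.2 and 3.71 TPM in M1, against 5.32, 6.85 and 5.93 TPM in M0. It was apart between groups in TPM (log2 fold change −0.57, SE 0.10, adjusted p = 0.00036) and overlapped after rescaling (−0.27, SE 0.10, adjusted p = 0.035). That rescaled call was lost when any 1 of 4 libraries (M1 replicates 2 and 3, M0 replicates 2 and 3) was left out, with an adjusted p of up to 0.14, and the adjusted p in the authors' deposited table was 0.21. Eif4enif1 (NM_023743, chromosome 11), the eIF4E transporter 4E-T, which shuttles eIF4E into the nucleus and represses bound mRNAs, had 20.6, 20.4 and 23.3 TPM in M1, against 30.1, 31.6 and 29.4 TPM in M0. The groups were apart in TPM (−0.49, SE 0.06, adjusted p = 2e-05) and overlapped after rescaling (−0.14, SE 0.05, adjusted p = 0.044). The rescaled call was lost without any 1 of M1 replicates 1 and 2 or M0 replicates 1 and 2, with an adjusted p of up to 0.16. The adjusted p in the authors' deposited table was 0.066.

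Their target was nearly level in TPM and higher after rescaling. Eif4e (NM_007917, chromosome 3), the cap-binding protein, had 40, 41 and 40.8 TPM in M1 cells, against 39.7, 40.2 and 39 TPM in M0 cells. These groups overlapped in TPM, with a log2 fold change of 0.03 (SE 0.05, adjusted p = 0.50), and the rescaled value was 0.39 (SE 0.04, adjusted p = 1.3e-05). A raw ratio of 2 genes within a library does not depend on the scale. The log2 differences and their tests used TPM + 1 for each gene, so they depend on the scale in part. Eif4ebp1 stood at 1.60, 1.57 and 1.42 times Eif4e in M1 libraries, against 2.56, 2.35 and 2.63 times in M0 libraries. Eif4ebp2 stood at 0.283, 0.286 and 0.339 times Eif4e in M1 libraries, against 0.770, 0.827 and 0.779 times in M0 libraries. Both inhibitors were thus lower relative to eIF4E mRNA in every M1 library, with log2 differences of −0.70 (SE 0.07) and −1.32 (SE 0.08). With 3 samples against 3 the exact two-sided permutation test gave p = 0.10 for each, the smallest it can give. Eif4ebp2 was also lower relative to Eif4ebp1, at 0.199 ± 0.0337 in M1 and 0.317 ± 0.0310 in M0 (SD, n = 3 libraries each).

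The other cap-binding relatives were close to level in TPM as well. Eif4e2, which encodes the cap-binding repressor 4EHP, averaged 58.8 ± 1.5 TPM in M1 and 56 ± 0.731 TPM in M0 (SD, n = 3 each). Eif4e3, another cap-binding relative, averaged 25.8 ± 0.833 TPM in M1 and 26.9 ± 1.51 TPM in M0. Neither passed on the TPM scale (adjusted p = 0.18 and 0.37), and both were higher after rescaling (0.43 and 0.29). The ratio of Eif4e2 to Eif4e overlapped between groups (exact p = 0.30).

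Among the scaffolds, the family members moved differently. Eif4g2 (NM_013507, chromosome 7), also known as DAP5 or p97, resembles the scaffold eIF4G but lacks the site for eIF4E. It had 306.6, 307.9 and 354 TPM in M1 cells, against 222, 258 and 249 TPM in M0 cells, and the groups were apart. The log2 fold change was 0.41 (SE 0.07, adjusted p = 0.00027; rescaled 0.77, SE 0.06, adjusted p = 1.6e-06), with M1 replicate 3 15.4% above its group and M0 replicate 1 12.5% below its own. The canonical scaffold Eif4g1 (NM_001304432, chromosome 16) had 110.9, 114 and 131 TPM in M1, against 135, 147 and 144 TPM in M0. It was lower on the TPM scale (−0.26, SE 0.06, adjusted p = 0.003) and overlapped after rescaling (0.10, SE 0.06, adjusted p = 0.13). Eif4g3, the other eIF4E-binding scaffold, averaged 45.4 ± 3.29 TPM in M1 and 48.3 ± 1.79 TPM in M0 and was not called in TPM over all libraries (−0.09, adjusted p = 0.18; rescaled 0.27, adjusted p = 0.00078). Without M1 replicate 3 it was called lower in TPM (−0.14, adjusted p = 0.025). Within libraries, Eif4g2 stood at 2.76, 2.71 and 2.7 times Eif4g1 in M1 libraries, against 1.65, 1.76 and 1.73 times in M0 libraries. This ratio was tight in each group although the levels of both genes shifted in M1 replicate 3, and it differed by 0.67 on the log2 scale (SE 0.03, exact p = 0.10).

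The helicase genes also differed among themselves. Eif4a1 (NM_144958, chromosome 11), the main helicase of eIF4F, was the second most abundant factor, with 880.2, 864 and 846 TPM in M1 cells, against 713, 716 and 720.2 TPM in M0 cells. The groups were apart and it rose (0.27, SE 0.04, adjusted p = 9e-05; rescaled 0.63, SE 0.05, adjusted p = 8.9e-07). Eif4a2, its close relative, was counted on NR_152586 (chromosome 16) and rose to 102.1, 98.3 and 93 TPM in M1, against 77.3, 77.9 and 75.1 TPM in M0 (0.34, SE 0.05, adjusted p = 4.2e-05; rescaled 0.70, adjusted p = 6.5e-07). It overlaps Rfc4 on the other strand, which averaged 30.6 TPM in M1 and 56.8 TPM in M0, and whether counting used strand is not stated in any source. The ratio of Eif4a2 to Eif4a1 was 0.113 ± 0.00308 in M1 and 0.107 ± 0.00252 in M0. Eif4a3, the relative that sits in the exon junction complex, was lower on the TPM scale (92.2 ± 4.25 TPM in M1 and 124.7 ± 5.42 TPM in M0; −0.43, SE 0.05, adjusted p = 1e-05) and not called after rescaling (−0.07, adjusted p = 0.19).

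The cofactors of the helicase were lower in TPM. Eif4b (NM_145625, chromosome 15), which stimulates eIF4A and is a substrate of S6 kinase, had 136, 139 and 155 TPM in M1 cells, against 199, 222 and 213 TPM in M0 cells. It fell on both scales (−0.56, SE 0.06, adjusted p = 4.8e-06; rescaled −0.19, SE 0.05, adjusted p = 0.0074), and the groups were apart on both. Eif4h, which shares this role, averaged 141 ± 7.53 TPM in M1 and 187 ± 17.2 TPM in M0 (−0.41, SE 0.07, adjusted p = 0.00019) and was not called after rescaling (−0.05, adjusted p = 0.52). No read was assigned in any library to Eif4e1b, a relative of eIF4E known from oocytes. A count of 0 allows up to 3 reads, or 0.127 TPM in the shallowest library.

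**Figure D2:**
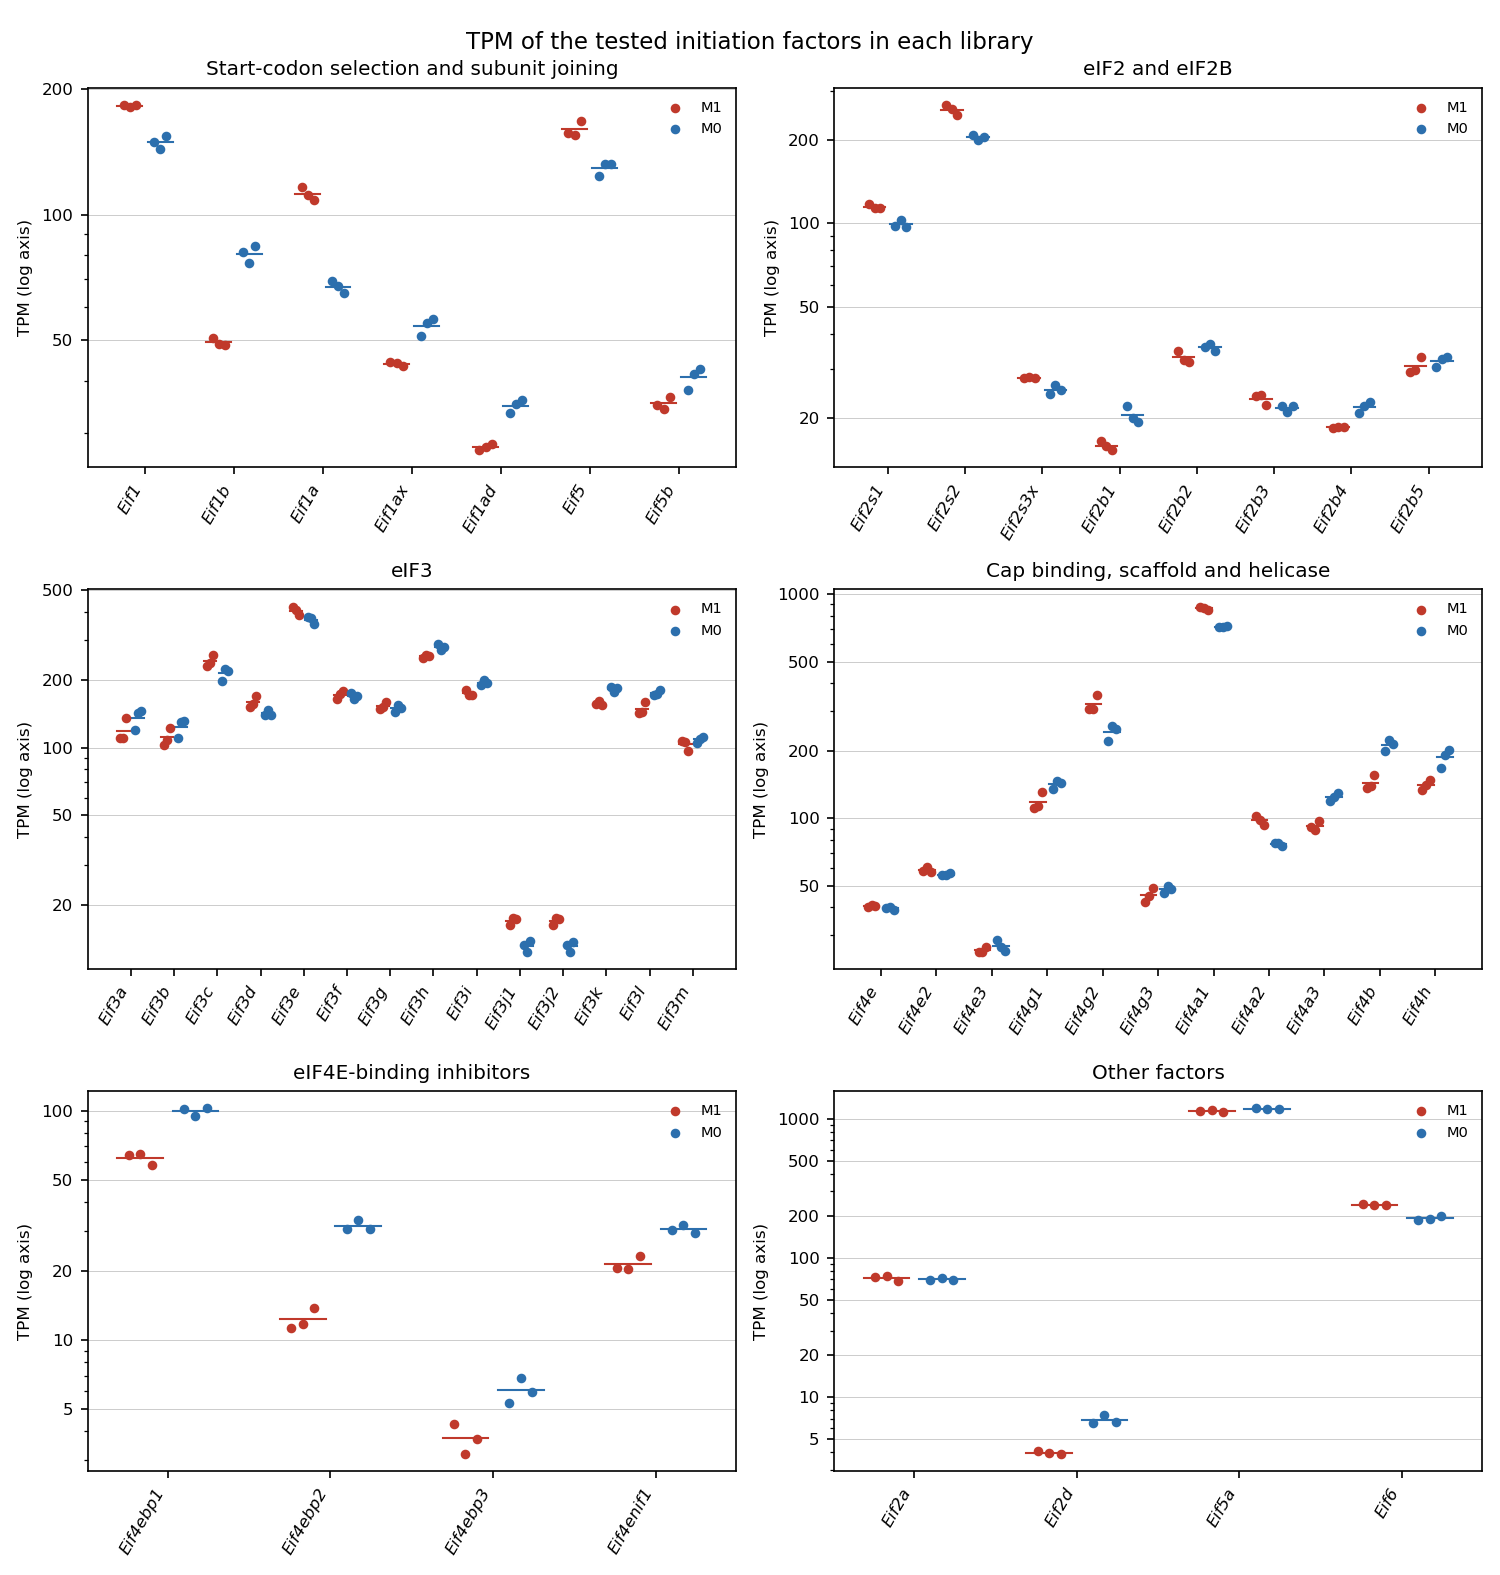
TPM of the 48 tested initiation factors in each library, on log axes, grouped by role, with M1 in red and M0 in blue. Points are libraries and lines are group means. The points of Eif4ebp2, Eif4ebp1, Eif1b and Eif4b lie lower in M1 with no overlap, those of Eif1a, Eif2s2, Eif4a1 and Eif6 lie higher with no overlap, and those of Eif4e, Eif2a and Eif3f overlap.

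Start-codon selection showed pairs of near relatives that moved apart. Eif1 (NM_011508, chromosome 11), which keeps the scanning ribosome from starting at the wrong codon, had 183, 181 and 183 TPM in M1 cells, against 149, 144 and 154 TPM in M0 cells. Its groups were apart and it rose (0.29, SE 0.04, adjusted p = 7.3e-05; rescaled 0.65, SE 0.05, adjusted p = 4.2e-07). Eif1b (NM_026892, chromosome 9), its paralog, had 50.7, 48.9 and 48.8 TPM in M1, against 81.4, 76.6 and 84 TPM in M0. It fell on both scales with no overlap (−0.69, SE 0.05, adjusted p = 1.3e-07; rescaled −0.33, SE 0.05, adjusted p = 0.00018). The ratio of Eif1b to Eif1 was 0.277, 0.271 and 0.267 in M1 libraries, against 0.547, 0.533 and 0.545 in M0 libraries. It was lower in every M1 library (difference −0.98 on the log2 scale, SE 0.02, exact p = 0.10). Reads shared between such paralogs could be split by the authors' counting, which was not tested.

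The eIF1A genes gave a second such pair. Eif1a (NM_010120, chromosome 18), which opens the small subunit for scanning together with eIF1, had 116, 111 and 109 TPM in M1 cells, against 69.3, 67.5 and 65 TPM in M0 cells. This was the largest rise among the 48 factors, 1.67-fold in TPM (0.73, SE 0.05, adjusted p = 5.9e-08) and 2.15-fold after rescaling (1.09, SE 0.05, adjusted p = 2e-08). Eif1ax (NM_025437, X chromosome), the other eIF1A gene, had 44.5, 44.1 and 43.5 TPM in M1, against 51.2, 54.9 and 56.4 TPM in M0. It was lower on the TPM scale (−0.29, SE 0.05, adjusted p = 0.00021) and not called after rescaling (0.07, SE 0.05, adjusted p = 0.22). Eif1a stood at 2.62, 2.53 and 2.50 times Eif1ax in M1 libraries, against 1.35, 1.23 and 1.15 times in M0 libraries, with no overlap (difference 1.02 on the log2 scale, SE 0.07, exact p = 0.10). Eif1ad, named for a domain like that of eIF1A, averaged 27.8 ± 0.508 TPM in M1 and 34.9 ± 1.20 TPM in M0 and was called in TPM only (−0.32, adjusted p = 0.00011; rescaled 0.04, adjusted p = 0.46).

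The factors that trigger GTP hydrolysis and subunit joining also differed. Eif5 (NM_173363, chromosome 12), the activator of GTP hydrolysis by eIF2, had 157, 155 and 167 TPM in M1 cells, against 124, 132 and 132 TPM in M0 cells. It rose with no overlap (0.30, SE 0.05, adjusted p = 0.00012; rescaled 0.66, SE 0.04, adjusted p = 2.2e-07). Eif5b, the GTPase that joins the large subunit, was lower on the TPM scale (35.3 ± 1.20 TPM in M1 and 40.8 ± 2.42 TPM in M0; −0.20, SE 0.06, adjusted p = 0.0061). It was higher after rescaling (0.15, SE 0.05, adjusted p = 0.014), a call lost without M0 replicate 1 (adjusted p = 0.054). Eif5b overlaps Rev1 on the other strand, at 6.08 TPM in M1 and 9.40 TPM in M0.

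All 3 tested subunits of eIF2 rose, against 18.7% of all tested genes. Eif2s2 (NM_026030, chromosome 2), the β subunit, had 267, 258 and 244 TPM in M1 cells, against 207, 199 and 204 TPM in M0 cells (0.33, SE 0.05, adjusted p = 4.6e-05). Eif2s1 (NM_026114, chromosome 12), the α subunit that the eIF2 kinases phosphorylate, had 117, 113 and 113 TPM in M1, against 98, 103 and 96.9 TPM in M0 (0.20, SE 0.04, adjusted p = 0.0012). Both were apart between groups, and their rescaled log2 fold changes were 0.69 and 0.57. Eif2s3x (NM_012010, X chromosome), the γ subunit that binds tRNA and GTP, had 27.7, 27.9 and 27.7 TPM in M1, against 24.3, 26.1 and 25.2 TPM in M0. Its TPM call was narrow (0.14, SE 0.05, adjusted p = 0.028) and was lost when M1 replicate 1 or 2 or M0 replicate 1 or 3 was left out (0.11 to 0.14), while the rescaled value was 0.49 (adjusted p = 3.5e-06). In TPM, which allows for length, the β subunit was the most and the γ subunit the least abundant of the 3 in all 6 libraries. Its copy Eif2s3y had 1 read over the 3 M1 libraries and 0 over the 3 M0 libraries.

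The exchange factor eIF2B, which recharges eIF2 with GTP, differed from its substrate on the TPM scale. Of its 5 genes 3 were not called there and 2 were lower, Eif2b1 (15.8 ± 0.574 TPM in M1 and 20.4 ± 1.45 TPM in M0; −0.34, SE 0.06, adjusted p = 0.00039) and Eif2b4 (18.5 ± 0.0604 TPM in M1 and 21.9 ± 0.959 TPM in M0; −0.23, SE 0.05, adjusted p = 0.0021). After rescaling 4 were called higher, from 0.12 for Eif2b4 to 0.46 for Eif2b3, and Eif2b1 was at 0.00 (SE 0.07). The share lower in TPM was 40.0%, against 61.5% of all tested genes, and that higher after rescaling was 80.0%, against 38.1%. On the TPM scale Eif2b3 (0.11, adjusted p = 0.093) was called higher without M1 replicate 3 (0.14, adjusted p = 0.032), and Eif2b2 (−0.12, adjusted p = 0.062) was called lower without M1 replicate 1 (−0.16, adjusted p = 0.029). The rescaled call of Eif2b4 was lost without any 1 of M1 replicates 1 and 2 or M0 replicates 1 and 2. Its adjusted p was then up to 0.14. Eif2b5, the catalytic ε subunit, had 29.2, 29.7 and 33 TPM in M1 cells, against 30.3, 32.6 and 33.1 TPM in M0 cells, and the groups overlapped (−0.06, SE 0.06, adjusted p = 0.37). Relative to Eif2s1 it was lower in every M1 library, at 0.249, 0.263 and 0.291 in M1, against 0.309, 0.316 and 0.341 in M0 (difference −0.27 on the log2 scale, SE 0.08, exact p = 0.10).

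The genes of eIF3, the large complex that ties the small subunit to eIF4G, stayed within a narrow range. Their log2 fold changes ran from −0.24 (Eif3l) to 0.35 (Eif3j2) on the TPM scale and from 0.13 to 0.69 after rescaling. On the TPM scale 5 of 14 were higher, 4 lower and 5 not called. That is 35.7% higher and 28.6% lower, against 18.7% and 61.5% of all tested genes. After rescaling 13 were higher (92.9%, against 38.1%), and Eif3a was not called. The authors' deposited table called all 14 higher, against 35.6% of all tested genes there, Eif3a with an adjusted p of 0.046. The 5 that rose were Eif3c, Eif3d, Eif3e, Eif3j1 and Eif3j2. Eif3j1 and Eif3j2 were counted on the same stretch of chromosome 2 with nearly the same reads (2025 and 2020 over the M1 libraries, 1397 and 1392 over the M0 libraries), so they are 1 measurement. That locus, which encodes the loosely bound j subunit, had 16.4, 17.6 and 17.3 TPM in M1, against 13.3, 12.4 and 13.8 TPM in M0 (Eif3j1: 0.35, SE 0.06, adjusted p = 0.00024). It was the scarcest eIF3 gene in every library and the one with the largest fold change. It overlaps Spg11 on the other strand, at 7.92 TPM in M1 and 10 TPM in M0.

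Among the core subunits, Eif3c (NM_146200, chromosome 7) had 231, 236 and 258 TPM in M1 cells, against 198, 223 and 218 TPM in M0 cells (0.18, SE 0.06, adjusted p = 0.014). The groups were apart, and the call was lost without M0 replicate 1 (0.13, adjusted p = 0.051). Eif3d (NM_018749, chromosome 15), a subunit known in human cells to bind the cap of some mRNAs, had 152, 156 and 169.7 TPM in M1, against 139.5, 147 and 139 TPM in M0 (0.16, SE 0.05, adjusted p = 0.012). Eif3e (NM_008388, chromosome 15), the most abundant eIF3 gene in every library, had 421, 406 and 386 TPM in M1, against 378, 375 and 353 TPM in M0. Its TPM call (0.13, SE 0.05, adjusted p = 0.028) was lost without M1 replicate 1 or 2 or M0 replicate 3 (0.10 to 0.13), and its rescaled value was 0.50 (adjusted p = 2.2e-05). Eif3f and Eif3g were level in TPM (0.02 and 0.03, adjusted p = 0.75 and 0.55). Eif3h, Eif3i, Eif3k and Eif3l were lower in TPM (−0.13 to −0.24) and higher after rescaling (0.13 to 0.23). Without M1 replicate 1 the TPM call of Eif3h was lost (−0.12, adjusted p = 0.052). The rescaled call of Eif3k was lost without M1 replicate 2 or M0 replicate 2 (adjusted p up to 0.074), and that of Eif3l without M1 replicate 2 or 3 or M0 replicate 1 or 2 (up to 0.11).

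Eif3a and Eif3b varied with the libraries that stood apart. Eif3a (NM_010123, chromosome 19), the scaffold subunit of the complex, had 110.6, 109.7 and 135 TPM in M1 cells, against 119.6, 143 and 145 TPM in M0 cells. M1 replicate 3 was 22.3% above the mean of the other M1 libraries and M0 replicate 1 was 16.9% below that of the other M0 libraries, so the groups overlapped (−0.20, SE 0.10, adjusted p = 0.10). Without M1 replicate 3 the log2 fold change was −0.29 (adjusted p = 0.0094), and without M0 replicate 1 it was −0.29 (adjusted p = 0.013). Eif3b, the next subunit of the core, behaved alike, with −0.16 (SE 0.08, adjusted p = 0.097) over all libraries, −0.23 without M1 replicate 3 (adjusted p = 0.015) and −0.23 without M0 replicate 1 (adjusted p = 0.0097). Its rescaled value of 0.21 (adjusted p = 0.023) lost its call without either of them (adjusted p up to 0.086). Eif3m averaged 103 ± 5.70 TPM in M1 and 108.5 ± 3.44 TPM in M0 and was not called in TPM (adjusted p = 0.21; rescaled 0.29, adjusted p = 0.00077). It overlaps Ccdc73 on the other strand, which stood at 0.527 TPM in M1 and 0.520 TPM in M0.

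The remaining factors act outside the scanning complex or beside it. Eif6 (NM_010579, chromosome 2), which holds the large subunit apart from the small one, had 244, 240.2 and 239 TPM in M1 cells, against 186, 190.4 and 199 TPM in M0 cells. It rose with no overlap (0.33, SE 0.04, adjusted p = 2.7e-05; rescaled 0.69, SE 0.04, adjusted p = 2.3e-07). Eif5a (NM_001166595, chromosome 11), the hypusine-bearing factor now known mainly for elongation and termination, was the most abundant of all 51 genes, at 1131, 1146 and 1122 TPM in M1 and 1184, 1171 and 1180 TPM in M0. Its M1 values lay just below its M0 values, the difference did not pass on the TPM scale (−0.06, SE 0.04, adjusted p = 0.22), and the rescaled value was 0.31 (adjusted p = 0.00023). Eif5a2, its relative, had 2 reads over the M1 libraries and 7 over the M0 libraries and was not tested.

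The alternative carriers of initiator tRNA were scarce, or level in TPM only. Eif2d (NM_001136070, chromosome 1), which can deliver tRNA without GTP and takes part in recycling, had 4.1, 3.95 and 3.91 TPM in M1 cells, against 6.49, 7.45 and 6.63 TPM in M0 cells. It fell with no overlap (−0.65, SE 0.07, adjusted p = 6.7e-06; rescaled −0.35, SE 0.07, adjusted p = 0.00089). Eif2a (NM_001005509, chromosome 3), a protein distinct from the α subunit of eIF2, had 72.7, 73.5 and 68.2 TPM in M1, against 69.4, 71.6 and 69.6 TPM in M0. These values overlapped (0.02, SE 0.05, adjusted p = 0.65), and the rescaled value was 0.38 (adjusted p = 4.2e-05). Eif2a overlaps the more abundant Serp1 on the other strand, which averaged 236 TPM in M1 and 157 TPM in M0.

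Summed, the 51 genes held 6823, 6821 and 6929 TPM in M1 libraries and 6651, 6817 and 6837 TPM in M0 libraries. That is 1.19% to 1.22% of the column total in M1 and 1.20% to 1.24% in M0, and these ranges overlap. As a share of reads in genes they held 1.33% to 1.35% in M1 and 1.29% to 1.32% in M0, with no overlap. By role, the eIF2 subunits summed to 385 to 412 TPM in M1, against 327 to 329.6 TPM in M0, with no overlap. The eIF4E-binding inhibitors summed to 98.8 to 100.3 TPM in M1, against 166 to 168 TPM in M0, also with no overlap. The eIF3 genes summed to 2197 to 2277 TPM in M1 and 2227 to 2290 TPM in M0, and overlapped. These sums were taken in TPM only. After rescaling, all 3 M1 libraries lay above all 3 M0 libraries for 13 of the 14 eIF3 genes, against 39.2% of all tested genes. Over the 48 tested factors, all 3 M1 libraries lay above all 3 M0 libraries for 17 and below for 20, against 19.6% and 61.8% of all tested genes. After rescaling these numbers were 34 and 5, against 39.2% and 36.5%.

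**Figure D3:**
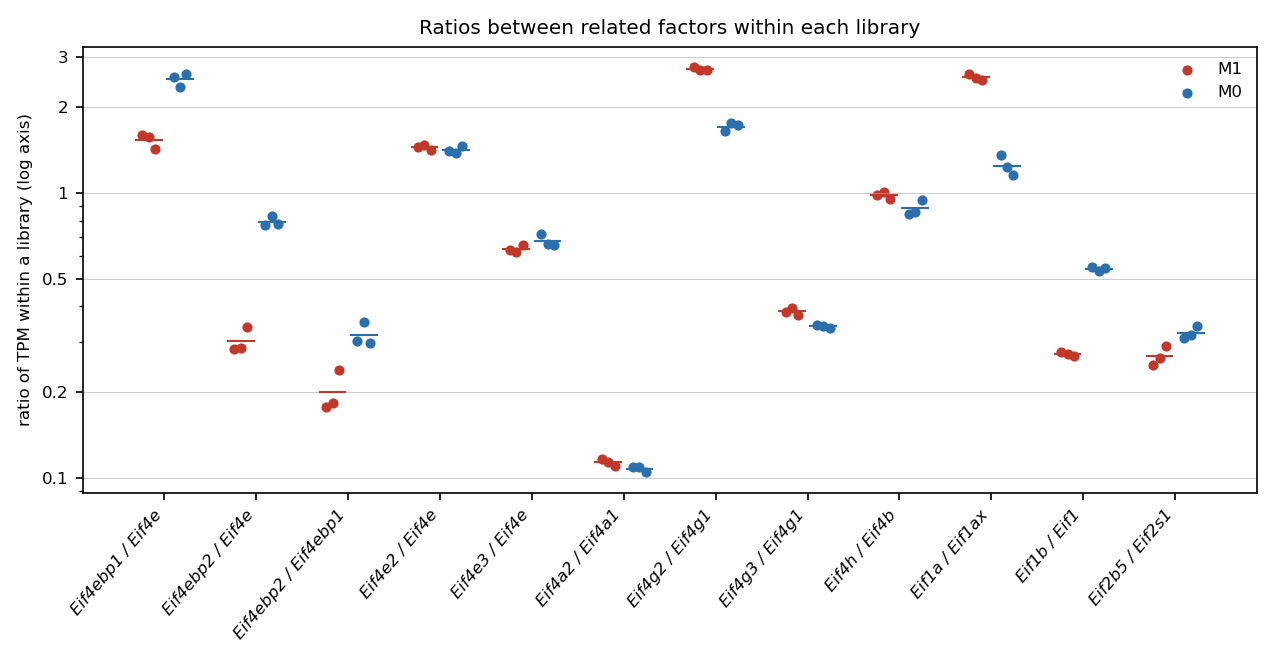
Ratio of the TPM of related factors within each library, on a log axis, with M1 in red and M0 in blue. Points are libraries and lines are group means. Eif4g2 over Eif4g1 and Eif1a over Eif1ax lie higher in M1, Eif4ebp2 over Eif4e and Eif1b over Eif1 lie lower, and Eif4e2 over Eif4e overlaps.

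Ratios within a library were computed for 13 pairs with both genes tested, and 11 of them did not overlap between groups. Of all tested genes taken singly, 19.6% lay wholly above and 61.8% wholly below in M1 TPM, and 39.2% and 36.5% after rescaling. Single genes depend on the scale and raw ratios do not, and no share over other pairs was computed. The count is therefore no result about these pairs, and the sizes of the ratios carry the description. The small ones were Eif4e3 over Eif4e (0.636 ± 0.0196 in M1 and 0.679 ± 0.0348 in M0), Eif4g3 over Eif4g1 (0.383 ± 0.0102 in M1 and 0.340 ± 0.00394 in M0) and Eif4h over Eif4b (0.980 ± 0.0256 in M1 and 0.884 ± 0.0554 in M0; SD, n = 3 libraries each). With 13 ratios, each at or above the smallest p that an exact test allows here, none can pass an adjusted threshold.

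Of the 4 eIF2 kinases, which phosphorylate eIF2α, 1 rose and 2 fell on both scales (25.0% and 50.0%, against 18.7% and 35.4% of all tested genes). Among them, Eif2ak2 (PKR, the kinase activated by double-stranded RNA and itself an interferon-stimulated gene) had 141, 137 and 145 TPM in M1 cells, against 32.7, 36.1 and 37.7 TPM in M0 cells. It rose 3.97-fold (log2 fold change 1.96, SE 0.06, adjusted p = 6.1e-11). Eif2ak3 (PERK, the kinase of the endoplasmic reticulum) fell to 3.32, 3.43 and 3.69 TPM in M1, against 11.8, 12.7 and 12.3 TPM in M0 (−1.57, SE 0.07, adjusted p = 1.9e-09). Eif2ak4 (GCN2, the sensor of uncharged tRNA) fell to 3.76, 3.87 and 4.39 TPM in M1, against 8.78, 9.98 and 9.12 TPM in M0 (−1.04, SE 0.08, adjusted p = 2e-07). All 3 had groups apart and passed on both scales. Eif2ak1 (HRI, the heme-regulated kinase) averaged 19.7 ± 0.982 TPM in M1 and 25.4 ± 0.701 TPM in M0 and was not called after rescaling (0.00, adjusted p = 0.94). On both scales both subunits that direct phosphatase to eIF2α rose, Ppp1r15b (CReP) with 83 ± 0.984 TPM in M1 and 46.2 ± 1.78 TPM in M0, and Ppp1r15a (GADD34) with 16.3 ± 0.594 TPM in M1 and 10.3 ± 0.235 TPM in M0. The catalytic subunits of that phosphatase did not pass in one direction on both scales: Ppp1ca was at −0.36 in TPM and 0.00 after rescaling, Ppp1cc at −0.40 and −0.04, and Ppp1cb at −0.02 and 0.35. The integrated stress response is the program downstream of phosphorylated eIF2. Of 18 tested genes listed as its targets, 14 rose on both scales (77.8%, against 18.7% of all tested genes). Of the other 4, Sars and Shmt2 were lower in TPM, and Shmt2 was higher after rescaling (0.13, adjusted p = 0.013). Atf4, the transcription factor at its centre, averaged 487 ± 5.09 TPM in M1 and 359 ± 11.4 TPM in M0, and Ddit3 (CHOP) averaged 21.3 ± 1.76 TPM in M1 and 16.7 ± 2.11 TPM in M0. The largest of these rises included Atf3 (531 ± 3.28 TPM in M1 and 180 ± 6.49 TPM in M0) and Nupr1 (68 ± 4.18 TPM in M1 and 20.5 ± 0.822 TPM in M0). These are RNA levels, and phosphorylation was not measured. The list was chosen with earlier results of these data known. Whether its genes responded to phosphorylated eIF2, or to LPS and interferon-γ by other routes, was not tested.

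Among the 19 partners of the cap complex, 3 rose and 8 fell on both scales, 15.8% and 42.1%, which lies near the 18.7% and 35.4% of all tested genes. Both kinases of eIF4E fell: Mknk2 (MNK2) to 10.2, 10.7 and 12.6 TPM in M1, against 44.9, 49.4 and 49.3 TPM in M0 (−2.01, SE 0.08, adjusted p = 6.4e-10), and Mknk1 (MNK1) to 18 ± 0.471 TPM in M1, against 33.8 ± 1.44 TPM in M0. Pdcd4, an inhibitor of eIF4A, had 1.17, 1.07 and 1.13 TPM in M1, against 3.72, 4.13 and 3.58 TPM in M0 (−1.18, SE 0.08, adjusted p = 7.1e-08). Paip2b, an inhibitor of poly(A)-binding protein, fell to 8.43 ± 0.292 TPM in M1, against 17.7 ± 0.347 TPM in M0. The poly(A)-binding protein Pabpc1 itself rose (847 ± 25.9 TPM in M1 and 736 ± 13.1 TPM in M0; 0.20, SE 0.04, adjusted p = 0.0012). So did Larp1, which binds mRNAs that carry a terminal oligopyrimidine tract (83.1 ± 9.01 TPM in M1 and 52.2 ± 5.67 TPM in M0), and Cyfip1, which links eIF4E to FMRP (113 ± 8.05 TPM in M1 and 91.6 ± 4.51 TPM in M0). Of 7 other initiation and recycling factors, 2 rose and 0 fell on both scales (28.6% and 0.0%, against 18.7% and 35.4% of all genes). Abce1 rose to 138 ± 2.06 TPM in M1, against 121 ± 4.57 TPM in M0. Denr, a partner in the release of tRNA after termination and in reinitiation, rose too. It had 118 ± 2.89 TPM in M1 and 58.8 ± 2.32 TPM in M0. Its binding partner Mcts1 was lower in TPM only (33.7 ± 1.47 TPM in M1 and 41.5 ± 2.32 TPM in M0; rescaled 0.06, adjusted p = 0.38).

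**Figure D4:**
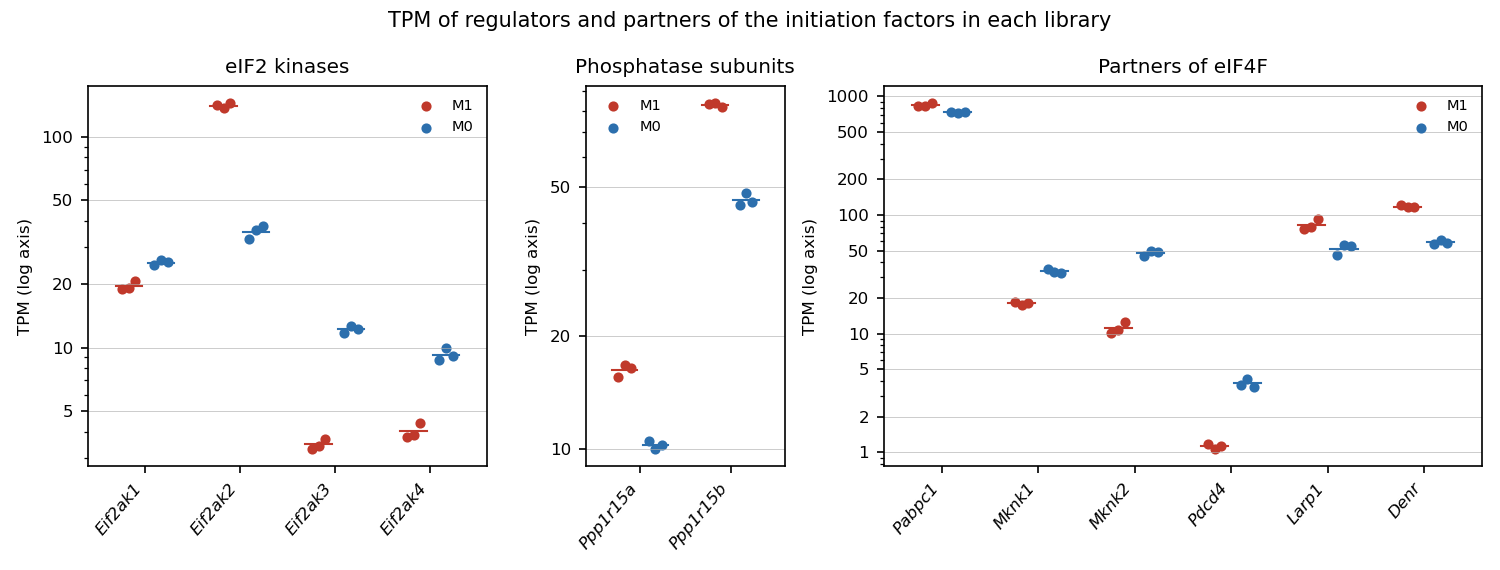
TPM of eIF2 kinases, eIF2α phosphatase subunits and partners of the cap-binding complex in each library, on log axes, with M1 in red and M0 in blue. Points are libraries and lines are group means. Eif2ak2, Ppp1r15b and Denr lie well above their M0 values in M1, and Eif2ak3, Eif2ak4, Mknk2 and Pdcd4 well below.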

How the data were processed

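Poly(A) RNA from 3 M1 and 3 M0 samples was analysed. Tools named in the submitters' processing notes are DESeq2, HOMER 4.11.1, STAR 2.7.5a and bcl2fastq, and the build is mm10; roles are not given. The authors deposited a table of TPM per gene and library, per the file headers, and a second table with log2 values, whose transform is not stated, and their own fold change (log2) with its p-value, raw and adjusted, for 24421 genes. Their comparison is named M0 vs. M1, but its sign is that of M1 minus M0 for all 8171 genes they called. Of its genes, 23553 were matched by symbol.

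The columns of TPM sum to 551257 to 572349, less than the full scale. TPM times transcript length is a whole multiple of 1 value per library for at least 99.8% of values above 0 (within 0.1 read), which gave the reads. Intervals and floors cover counting error only. limma 3.58.1 in R 4.3.3 (trend, robust) was fitted to log2(TPM + 1) for the 11297 genes that reached 1 TPM in 3 or more libraries, with group as the only term, 4 residual degrees of freedom and Benjamini-Hochberg adjustment at 0.05, and again after division by median-of-ratios factors. On simulated data for M1 against M0 with 11297 genes, 66 of 67 genes changed 1.5-fold were recovered, 67 of 67 at 2-fold and 66 of 66 at 4-fold, with 12 false among 211 calls. The simulation gave every gene the same dispersion, changed a small share of genes, all well counted, and held no shift between scales. Changes under 1.5-fold were not simulated, so these rates do not carry over to the calls made here. Ratios within libraries were compared by exact permutation, on the log2 ratio of TPM + 1 for each gene. Whether counting used strand is not stated, so genes that overlap are uncertain. The alternatives were other scalings, the authors' log2 values, pseudocount, filters, no robust step, the replicate block and each library left out. The members, lists and pairs were chosen with earlier results of these data known. Every member was accounted for. In related lists up to 2 genes called higher and 2 called lower by smallest p could be named, with the most abundant gene not called. The eIF2 kinases and further regulators could be named whatever their values. Cyfip1, Mcts1 and Eef2k were named after their values were seen. Mtif2 was named outside this rule, since Tsfm, which also fell, had the smaller p on both scales. Scipy 1.17.1, pandas 2.3.3 and matplotlib 3.10.9 were used.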

Additional observations from a re-analysis of the deposited data

How the results depend on the processing

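The scale turned the direction of 18 of the 48 factors. After median-of-ratios rescaling 34 factors were higher and 7 lower, against 15 and 19 on the TPM scale; with the authors' log2 values there were 34 and 6, and with upper-quartile rescaling, where the median log2 fold change of all genes was −0.18, there were 21 and 12. Over all genes, 2111 higher and 6944 lower became 4305 and 4002 after median-of-ratios rescaling and 4152 and 3865 with the authors' log2 values. The log2 fold changes that were below 0 in TPM and above 0 otherwise were, with median-of-ratios and then the authors' values, Eif1ax 0.065 and 0.11, Eif1ad 0.037 and 0.036, Eif5b 0.15 and 0.15, Eif2b1 0.0011 and 0.0035, Eif2b2 0.24 and 0.22, Eif2b4 0.12 and 0.078, Eif2b5 0.29 and 0.29, Eif3a 0.16 and 0.16, Eif3b 0.21 and 0.20, Eif3h 0.23 and 0.23, Eif3i 0.21 and 0.20, Eif3k 0.15 and 0.14, Eif3l 0.13 and 0.13, Eif3m 0.29 and 0.28, Eif4e3 0.29 and 0.30, Eif4g1 0.10 and 0.098, Eif4g3 0.27 and 0.27, Eif5a 0.31 and 0.31. With upper-quartile rescaling they were Eif2b2 0.019, Eif2b5 0.077, Eif3h 0.0087, Eif3m 0.067, Eif4e3 0.080, Eif4g3 0.050, Eif5a 0.085. The same 15 factors were higher under all 4 scalings, and 6 were lower, all that fell but Eif4ebp3. The TPM scale had the lowest median log2 fold change of the 4, so a call higher there was nearly sure to hold elsewhere. Leaving out 1 library at a time gave 13 to 16 factors higher and 19 to 22 lower in TPM, and 30 to 34 higher and 5 to 6 lower after rescaling, which was added after the data were seen. Over all genes it gave 1990 to 2076 higher and 6606 to 6997 lower. Eif3f, at 0.02 over all libraries and never called, ran from −0.0097 without M1 replicate 3 to 0.048 without M1 replicate 1, and was −0.0060 without M0 replicate 2. A pseudocount of 0.1 TPM, no filter on low values, a filter at 5 TPM and no robust step left the direction and the call of all 48 factors as they were. Samples that share a replicate number did not deviate together (correlations 0.07, −0.08 and 0.04). With 3 samples in each group this cannot tell whether the numbers pair cultures, which the labels do not say. A fit with the replicate block gave 15 factors higher and 21 lower in TPM and 34 and 5 after rescaling, with 2143 and 7016 over all genes. Eif4ebp3 and Eif2d rest on the fewest reads of the factors that fell; Eif2d was called lower under all 4 scalings. The cause of the difference between scales was not tested.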

Other observations

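Steps of translation after initiation were read on the same scales, with the lists chosen as for the factors above. The list of elongation factors also holds Eef1e1 and the enzymes Dhps and Dohh, which modify eIF5A. Of its 9 tested genes, 2 rose on both scales (22.2%, against 18.7% of all tested genes). Eef1e1, which belongs to the aminoacyl-tRNA synthetase complex, rose to 121 ± 6.49 TPM in M1, against 96.1 ± 1.63 TPM in M0 (SD, n = 3 each), and Eef1a1, which brings aminoacyl-tRNA to the ribosome, averaged 3954 ± 87.1 TPM in M1 and 3668 ± 8.17 TPM in M0. Eef2, the translocase, averaged 715 ± 54.7 TPM in M1 and 828 ± 46.8 TPM in M0, lower in TPM and higher after rescaling (−0.21 and 0.15). Its inhibitory kinase Eef2k was too scarce to be tested, at 0.195 ± 0.0491 TPM in M1 and 0.771 ± 0.103 TPM in M0. Among 6 termination and rescue factors, Etf1, which reads stop codons, rose to 142 ± 5.40 TPM in M1, against 117 ± 7.74 TPM in M0. Gtpbp2, a ribosome rescue factor, rose to 61.8 ± 2.44 TPM in M1, against 32 ± 1.01 TPM in M0, and its relative Gtpbp1 fell to 16.8 ± 1.31 TPM in M1, against 27.4 ± 1.10 TPM in M0.

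Of 8 factors of translation in mitochondria, 4 fell on both scales (50.0%, against 35.4% of all tested genes), and Gfm1 and Gfm2, both elongation factor G relatives, were higher after rescaling (0.15 and 0.26). Tufm, the mitochondrial elongation factor Tu, averaged 23.7 ± 1.23 TPM in M1 and 37.4 ± 1.17 TPM in M0, and Mtif2, the mitochondrial relative of IF2, averaged 13.2 ± 0.597 TPM in M1 and 19.9 ± 1.05 TPM in M0. In the mTORC1 pathway, the kinase pathway that acts on the eIF4E-binding proteins, 2 of 28 tested genes rose and 11 fell on both scales, 7.14% and 39.3%, against 18.7% and 35.4% of all tested genes, so the share that fell is near the background. Those that fell include the inhibitors Ddit4 (3.98 ± 0.435 TPM in M1 and 33.7 ± 1.65 TPM in M0) and Deptor (1.07 ± 0.139 TPM in M1 and 4.50 ± 0.288 TPM in M0) as well as the mTORC1 subunit Rptor (11 ± 1.24 TPM in M1 and 18.5 ± 2.01 TPM in M0), which was named after its values were seen. Nprl3, a subunit of an inhibitory complex, and the activator Rheb rose (13.4 ± 0.245 and 102 ± 2.66 TPM in M1, against 9.34 ± 1.14 and 92.8 ± 4.88 TPM in M0). The other subunits of that complex, Depdc5 and Nprl2, fell (3.64 ± 0.407 and 8.08 ± 0.174 TPM in M1, against 8.56 ± 0.562 and 14.4 ± 0.434 TPM in M0). Both were named after their values were seen. Mtor itself averaged 9.05 ± 1.03 TPM in M1 and 10.8 ± 0.566 TPM in M0 and was called in TPM only. Of 34 small-subunit ribosomal protein genes, 1 was higher and 5 lower in TPM (2.94% and 14.7%, against 18.7% and 61.5% of all tested genes). After rescaling 33 were higher (97.1%, against 38.1%). Their medians were −0.06 in TPM and 0.31 after rescaling, against −0.31 and 0.02 for all tested genes. For the references, Actb averaged 5829 ± 72.0 TPM in M1 and 3639 ± 42.2 TPM in M0, and Gapdh averaged 764 ± 11.6 TPM in M1 and 989.7 ± 68.2 TPM in M0.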
